A study of Caenorhabditis elegans with 2 samples.

Results

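REF-2-GFP binding was examined at divergent promoters, the stretches of DNA from which a gene on the minus strand and a gene on the plus strand are read in opposite directions. Of the 2129 peaks that the authors' reproducibility filter (IDR, the irreproducible discovery rate) left in their optimal list, 245 were at such promoters (11.5%, exact 95% interval 10.2 to 12.9). A peak counted as a divergent promoter peak if its summit lay in the promoter window of at least 1 protein-coding gene on each strand. Each window covered 1000 bp before and 200 bp after the annotated 5' end in WBcel235, the assembly that genome browsers call ce11. Of 291 summits in windows of both strands, 46 lay within 200 bp of a tRNA, snoRNA, snRNA, ncRNA or lincRNA gene and were set aside; 40 of the 46 were nearest to an ncRNA gene. Positions that could meet the rule made up 1.98% of the genome. The chromatin came from hermaphrodite *C. elegans* of strain OP520 (unc-119(tm4063) III; wgIs520), collected whole as late embryos 3 h after synchronization by egg bleaching. OP520 carries an integrated transgene for REF-2 with a C-terminal GFP-FLAG tag. Chromatin was sheared by sonication and precipitated with an antibody to GFP, in 1 group of 2 biological replicates that share this genotype and stage. No control or untagged library was analysed here, and in whole embryos the cells that contributed each peak cannot be told apart.

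REF-2 belongs to the Zic family of zinc finger proteins, transcription factors that act in neural and ectodermal development across animals. *C. elegans* genes lie close together, so that neighbouring genes on opposite strands often share the DNA between their 5' ends, and a factor bound there cannot be assigned to either gene by position. Many *C. elegans* transcripts are trans-spliced to a leader RNA, so an annotated 5' end may lie downstream of the site where transcription began. Intervals below are exact Clopper-Pearson intervals at 95% and cover counting error only. Signal is the authors' own value for each peak, on a scale that the sources used here leave unstated.

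The DNA at the strongest divergent promoter peaks is shown first, to place the words counted further on. The 6 stretches were taken in order of pooled signal from peaks with at least 120 bases free of annotated transcripts in the 200 bases around the summit; sequence from 1 chromosome is not shown. Capitals mark GGGCGG or its reverse complement, the GC box, which is present in 4 of the 6 stretches. Among the 25 divergent promoter peaks of highest pooled signal, 8 had it in the 200 bases around the summit. Coordinates are of WBcel235.
K01G5.10/tasp-1, chrIII:10759141-10759306, plus strand: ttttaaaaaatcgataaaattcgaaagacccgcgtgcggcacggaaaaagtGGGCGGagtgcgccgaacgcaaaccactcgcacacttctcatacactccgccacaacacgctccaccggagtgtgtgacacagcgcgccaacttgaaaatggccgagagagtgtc
ecps-1/atx-2, chrIII:10461234-10461388, plus strand: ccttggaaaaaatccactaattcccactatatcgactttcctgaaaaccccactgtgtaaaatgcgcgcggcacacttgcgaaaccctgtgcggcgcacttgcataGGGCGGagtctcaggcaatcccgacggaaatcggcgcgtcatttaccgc
W03C9.5/rab-7/mex-1, chrII:11967646-11967845, plus strand: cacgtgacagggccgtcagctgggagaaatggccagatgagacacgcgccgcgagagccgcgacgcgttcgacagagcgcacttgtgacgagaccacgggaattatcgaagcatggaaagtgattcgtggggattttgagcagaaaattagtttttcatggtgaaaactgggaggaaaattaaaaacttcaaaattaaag
mlcd-1/idhg-1, chrIII:4568651-4568796, plus strand: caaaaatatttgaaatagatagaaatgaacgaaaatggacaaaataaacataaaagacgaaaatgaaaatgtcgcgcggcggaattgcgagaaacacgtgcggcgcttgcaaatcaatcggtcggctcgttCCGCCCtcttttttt
prp-19/K10D2.5/emb-1, chrIII:5172588-5172719, plus strand: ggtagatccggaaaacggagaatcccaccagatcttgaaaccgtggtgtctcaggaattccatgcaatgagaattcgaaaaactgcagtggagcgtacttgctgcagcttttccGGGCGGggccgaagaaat
rpl-15/K11H12.8, chrIV:654819-655018, plus strand: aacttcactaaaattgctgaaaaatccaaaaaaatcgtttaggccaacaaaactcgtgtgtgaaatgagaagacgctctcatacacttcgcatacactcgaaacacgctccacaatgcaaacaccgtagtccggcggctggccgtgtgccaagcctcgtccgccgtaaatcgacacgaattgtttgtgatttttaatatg
The stretch between K01G5.10 and tasp-1, a gene for a taspase-like protease, held the divergent promoter peak of highest pooled signal, 772. Of the others shown, those of atx-2 (an ataxin-2 relative that binds RNA), mex-1 (an RNA-binding protein that patterns the early embryo), idhg-1 (an isocitrate dehydrogenase subunit), prp-19 (a spliceosome-associated ubiquitin ligase) and the ribosomal protein gene rpl-15 had pooled signals of 618, 613, 573, 554 and 523. The summits at mex-1 and prp-19 lay nearer to another gene, at distances given below. GC content ran from 40.4% in the mlcd-1/idhg-1 stretch to 53.6% in the K01G5.10/tasp-1 stretch.

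A further set of divergent promoter peaks shared an exact word of 12 letters. It is shown because no other word of that length lay within 100 bases of more of the 245 summits, and it was picked after the sequences had been seen. Capitals mark the word, read on the strand given for each.
C14B9.8/mrpl-18, chrIII:8144741-8144788, minus strand: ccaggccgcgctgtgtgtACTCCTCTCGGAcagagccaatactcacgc
C56A3.6/cav-2, chrV:13556810-13556857, minus strand: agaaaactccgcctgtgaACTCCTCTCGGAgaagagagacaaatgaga
mib-1/gly-9/smc-3, chrIII:11290695-11290742, minus strand: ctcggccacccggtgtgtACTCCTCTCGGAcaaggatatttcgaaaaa
rict-1/gfm-1, chrII:13117315-13117362, plus strand: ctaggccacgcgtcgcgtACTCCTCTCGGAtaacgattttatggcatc
fbxb-85/hex-3, chrIII:10848973-10849020, minus strand: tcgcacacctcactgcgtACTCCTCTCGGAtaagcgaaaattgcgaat
F01D4.5/ced-5, chrIV:10483910-10483957, plus strand: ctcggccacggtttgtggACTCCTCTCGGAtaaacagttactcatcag
algn-14/M02B7.2, chrIV:3803458-3803505, plus strand: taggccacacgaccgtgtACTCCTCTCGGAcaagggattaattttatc
The word lay within 100 bases of the summit in 14 of 245 divergent promoter peaks (5.71%). It was found in 12 of 530 peaks in promoter windows of 1 strand only (2.26%), and at the midpoint of 2 of 1420 head-to-head gene pairs without even a relaxed peak (0.141%). The genome holds 240 copies, of which 34 (14.2%) lay within 100 bases of an optimal summit. The 14 peaks had pooled signals from 120 to 397 with a median of 222. At mib-1/gly-9/smc-3, near the gene for a cohesin subunit, replicate 1 gave 111 and replicate 2 gave 115. At F01D4.5/ced-5, near a gene for the engulfment of dying cells, the values were 118 and 76.6, and at C14B9.8/mrpl-18 they were 121 and 107. The strongest of the 14 was at cux-7/C07H6.2/lig-4, at 197 in replicate 1 and 198 in replicate 2. A median of 64.6% of the 16-letter words in their 200 bp windows occurred once in the genome, against 72.4% for all 245.

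Letters of the Zic type, the core of the motif known for vertebrate Zic proteins, were found at few divergent promoter peaks. The core, taken as CAGCAGG or CAGCGGG on either strand, lay within 100 bases of 6 of the 245 summits. Of these, 4 are shown, in 39 bases free of annotated transcripts and with the core in capitals.
nmat-1/ucr-2.1, chrX:12018173-12018211, minus strand: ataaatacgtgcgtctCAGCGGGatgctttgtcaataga
ahsa-1/C01G10.7, chrV:15085581-15085619, plus strand: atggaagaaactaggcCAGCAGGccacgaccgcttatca
Y45G5AM.9/algn-5, chrV:4194927-4194965, minus strand: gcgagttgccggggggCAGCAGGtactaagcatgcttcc
lir-3/sfxn-1.2, chrII:11185028-11185066, plus strand: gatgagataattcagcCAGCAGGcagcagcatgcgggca
The strongest of the 4 shown was at nmat-1/ucr-2.1, between genes for an enzyme of NAD synthesis and a subunit of respiratory complex III. Its pooled signal was 443, with 204 in replicate 1 and 236 in replicate 2. At ahsa-1/C01G10.7, near the gene for a co-chaperone of Hsp90, the values were 139 and 98.1, and at Y45G5AM.9/algn-5 they were 109 and 113. The 6 peaks with the core had a median pooled signal of 233 and the others 174.

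In most divergent promoter peaks the summit stood in the gap between the genes. Of the 245 summits, 228 lay between the 5' ends (93.1%, 89.1 to 95.9), and the other 17 lay 5 to 110 bp inside a gene, 11 in the plus-strand gene and 6 in the minus-strand gene. No protein-coding gene covered 225 of the summits (91.8%), 14 fell in an annotated 5' UTR, 4 in a coding exon and 2 elsewhere in a gene body. The windows of 226 peaks held 1 gene of each strand, and 19 held 3 or 4 genes. In all, 496 genes had a divergent promoter peak in the window, which is 2.48% of the 19973 protein-coding genes of the nuclear genome.

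The distance from each summit to the 5' ends on either side was measured. The median distance to the nearer 5' end was 135 bp (quartiles 61 and 216) and to the farther end 337 bp (214 and 550). A nearer end within 200 bp was found for 174 peaks (71.0%). Over every position that could meet the rule, the median distance to the nearest 5' end was 155 bp and 62.5% lay within 200 bp, so the windows themselves hold positions of this kind. For the 530 single-strand promoter peaks, those in windows of genes of 1 strand only and under the same noncoding exclusion, the median distance was 247 bp. The nearer gene was on the plus strand in 130 cases and on the minus strand in 115. Among the 228 summits between the ends, the ends stood a median of 502.5 bp apart (89 to 1659 bp), and the nearer end lay at a median of 0.313 of that spacing. In 60 cases the summit was close to the midpoint, with the nearer end past 0.4 of the spacing, and 28 summits lay within 0.1 of an end.

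**Figure D1:**
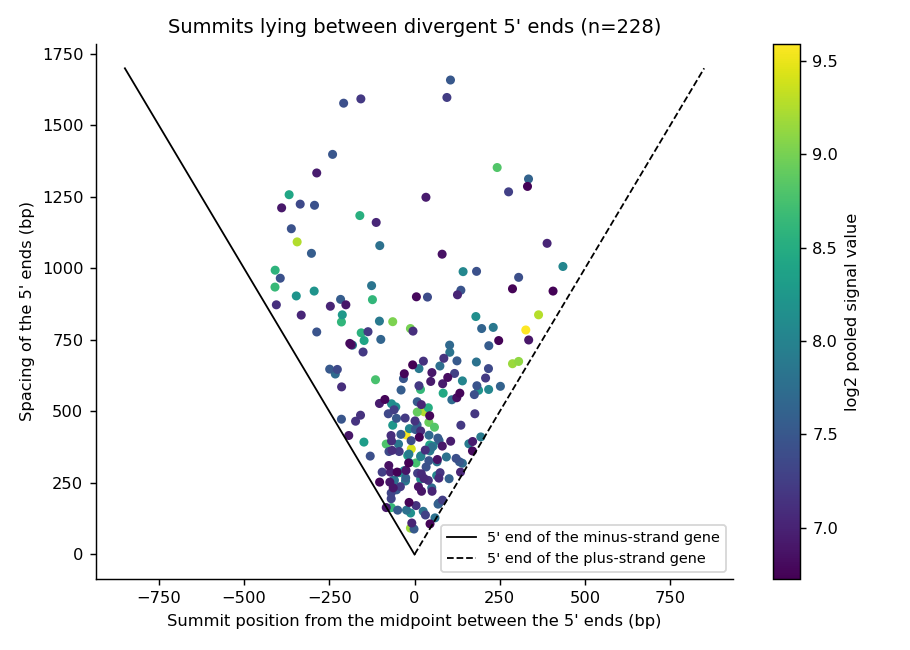
Each of 228 points is a divergent promoter peak whose summit lies between the 5' ends, placed by its distance from the midpoint (x axis, bp) and by the spacing of the ends (y axis, bp), with the log2 pooled signal as colour. Points fill the space between the lines that mark the ends, and spacings run from 89 to 1659 bp.

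Peaks were most frequent at pairs 300 to 399 bp apart. The genome holds 2560 head-to-head pairs of neighbouring protein-coding genes with 5' ends up to 2000 bp apart, and 221 of them had a divergent promoter peak between the ends (8.63%, 7.57 to 9.79). The share was 3.77% (0.460 to 13.0) for spacings under 100 bp, and 7.69% (4.37 to 12.4) from 100 to 199 bp. It was 12.4% (8.61 to 17.0) from 200 to 299 bp and 17.5% (12.7 to 23.4) from 300 to 399 bp. From there the share was lower with each step, at 11.7%, 11.1% and 9.09% up to 999 bp, then 4.11% (2.53 to 6.27) from 1000 to 1499 bp and 1.22% (0.333 to 3.09) from 1500 to 2000 bp. Part of the low share at wide spacings lies in the rule, since a summit more than 1000 bp from either end does not count. The intervals of the bins next to 300 to 399 bp overlap with its own.

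**Figure D2:**
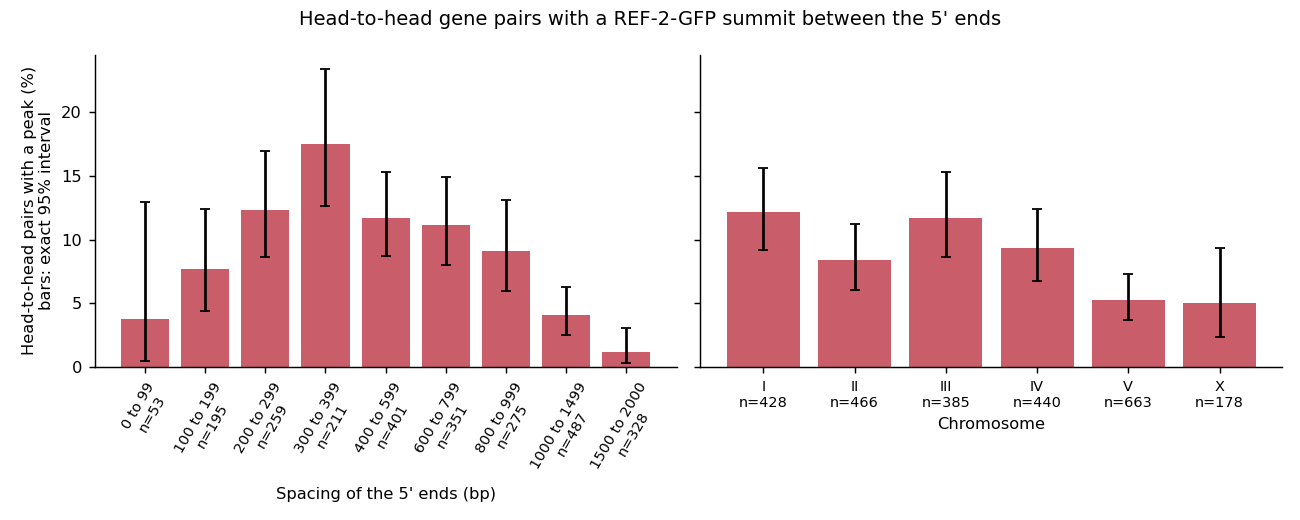
Share of head-to-head gene pairs with a divergent promoter peak between the 5' ends (y axis, %), by spacing of the ends (left, bp) and by chromosome (right), with exact 95% intervals and the number of pairs under each bar. The share is highest at 300 to 399 bp, 17.5%, and falls to 1.22% at 1500 to 2000 bp.

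Genes in such pairs had promoter peaks at a higher share than other genes. Counting either kind of promoter peak, 524 of 5120 genes in head-to-head pairs had one (10.2%, 9.42 to 11.1), against 502 of 14853 other protein-coding genes (3.38%, 3.09 to 3.68). A summit in a shared promoter counts for both genes, so these counts are of genes and not of binding events, and the interval for genes in pairs is too narrow. Among single-strand peaks alone, the share was 1.02% for genes in pairs and 3.23% for the others. Part of this order lies in the rule, since a summit in the windows of both genes of a pair counts as divergent and not as single-strand. Only 2 genes had both a divergent and a single-strand peak, a count that the rule limits in the same way.

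In 6 pairs the gap held 2 summits. At ecps-1/atx-2 they lay 576 bp apart, at 618 and 307 pooled signal, each nearer to a different gene. In the other 5 pairs, F29B9.11/jmjd-1.2, sup-35/Y48A6C.4, F56B3.11/ech-5, aka-1/ubc-6 and R186.8/lin-46, the summits lay 200 to 209 bp apart. Peaks of the full 440 bp width have their summit at the middle, as 223 of the 245 do, so neighbouring peaks at about 200 bp overlap and may describe 1 region.

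The median signal was higher at divergent promoter peaks than at the other classes of peak. The pooled signal had a median of 177 (quartiles 134 and 240, range 106 to 772) at divergent promoter peaks, against 147 (121 and 201) at single-strand promoter peaks. The median was 157 at the 593 peaks near noncoding genes, 133 at the 761 peaks outside promoter windows and 146 over all 2129. On the log2 scale the median stood 0.27 above that of single-strand promoter peaks. In replicate 1 the medians were 85.9 and 70.5, and in replicate 2 they were 88.3 and 78.4, so the order held in each replicate. The log2 ratio was 0.28 in replicate 1 and 0.17 in replicate 2 (SD 0.081, n = 2). The distributions overlapped widely, and the strongest single-strand promoter peak, at 2351, was above every divergent promoter peak.

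**Figure D3:**
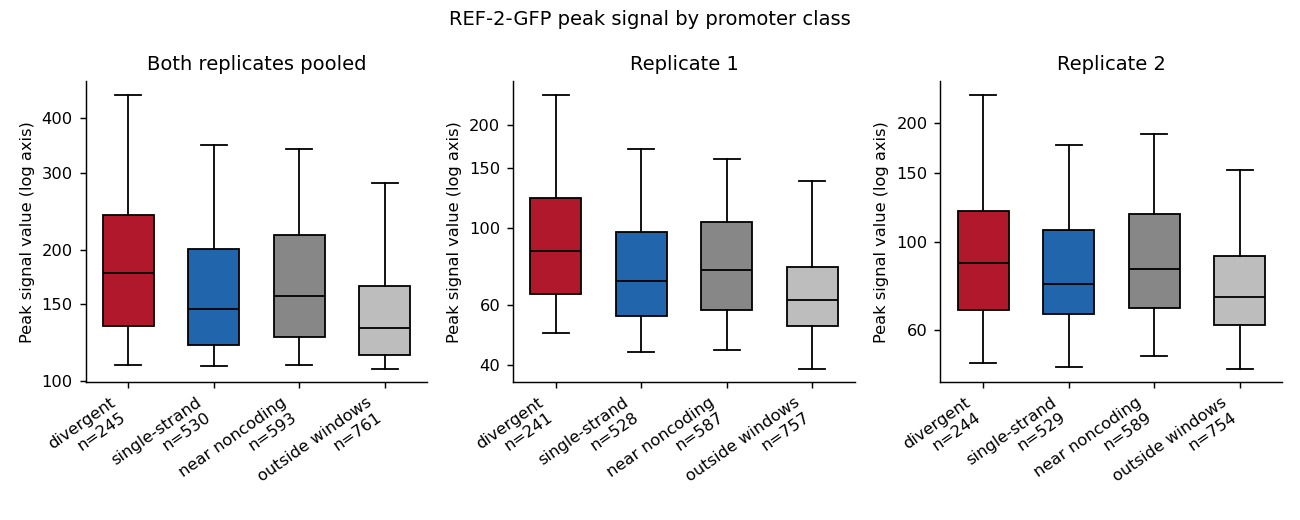
Signal value per peak (y axis, log scale) in the pooled list and in each replicate for 4 classes of optimal peak; boxes show quartiles, lines medians, and whiskers the 5th and 95th percentiles. The median of divergent promoter peaks is highest in all 3 panels, at 177, 85.9 and 88.3, and the boxes overlap.

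The order of the medians was examined within groups of like peaks. Within 200 bp of a 5' end, 174 divergent promoter peaks had a median pooled signal of 173 and 225 single-strand promoter peaks one of 146. Beyond 200 bp the medians were 181 (n = 71) and 147 (n = 305). By GC content of the 200 bp window, the medians were 170 and 156 below 40%, 174 and 140 from 40 to 49%, and 182 and 148 at 50% or more. On each chromosome the pooled median of divergent promoter peaks was above that of single-strand peaks, with log2 ratios from 0.09 on chromosome III to 0.44 on chromosome IV. On chromosome V the replicate 1 medians were in the opposite order, 76.1 and 77.7, and the replicate 2 medians were almost equal, 89.8 and 89.7. On the X the pooled medians were 179 (n = 11) and 138 (n = 144).

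Divergent promoter peaks were among the strongest of both replicates at a higher share than single-strand promoter peaks. Both replicates ranked a peak within 200 bp of the summit among their own 2129 strongest for 198 of the 245 (80.8%, 75.3 to 85.6), against 70.2% of all optimal peaks and 375 of 530 single-strand promoter peaks (70.8%, 66.7 to 74.6). For peaks near noncoding genes the share was 76.4% (72.8 to 79.8), an interval that overlaps that of divergent promoter peaks. Among the 245, replicate 1 alone ranked such a peak for 31, replicate 2 alone for 12 and neither for 4. Over all 2129 optimal peaks these counts were 281, 301 and 53, and over the 530 single-strand promoter peaks 68, 75 and 12. The lean to replicate 1 was thus not found in those 2 sets. Stronger peaks are more often in both, so this share and the signal are not separate measures. A peak within 200 bp need not be the one matched to the summit. The summit of his-2/his-1 is among the 198, though its own peak in replicate 2 ranked 21035. On chromosome III the order was the opposite, 80.4% of 51 divergent and 84.9% of 86 single-strand promoter peaks. At the summits with a peak of their own in each replicate, the summits lay a median of 17 bp apart between replicates for divergent promoter peaks and 24 bp for single-strand promoter peaks.

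**Figure D4:**
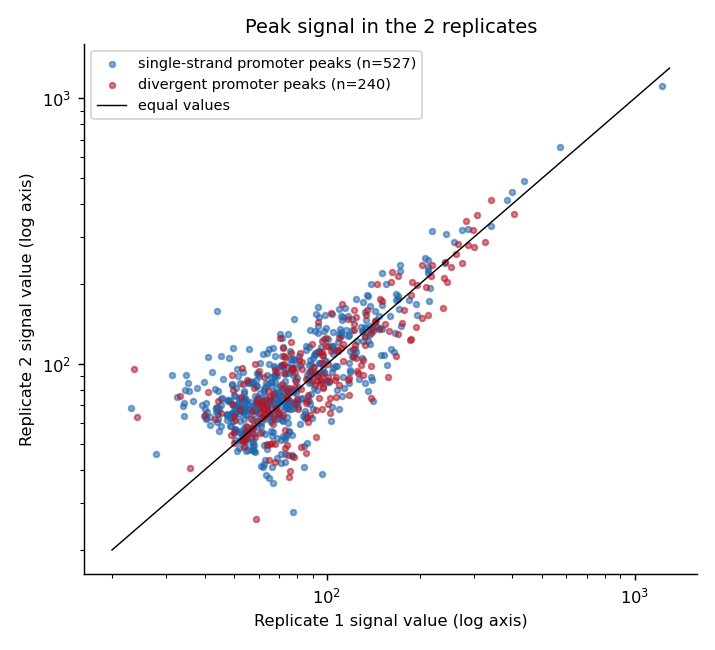
Signal value in replicate 1 (x axis, log scale) against replicate 2 (y axis, log scale) for the 240 divergent and 527 single-strand promoter peaks with a peak of their own in each replicate; the line marks equal values. Points spread about the line most widely below 100, where eif-4A3/vps-20 lies at 23.6 and 96.1.

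The replicate lists came close to each other at most divergent promoter peaks. Of 240 matched in both, 8 differed by more than 2-fold after centring on the median of all matched peaks, a share close to the background of 3.62% of 2100 optimal peaks. Across the 240, Spearman's rho between the replicates was 0.78, and 0.65 across 527 single-strand promoter peaks; peaks share libraries and chromatin and are not independent samples. The widest difference was at eif-4A3/vps-20, genes for an exon junction helicase and an endosomal sorting subunit, at 23.6 in replicate 1 and 96.1 in replicate 2. The shared promoter of the ribosomal protein genes rps-14 and rpl-36, with ndab-2 also in reach, leaned to replicate 2, at 24.1 and 63.1. R04F11.5/R04F11.2 stood at 33.3 and 76.3, Y50D4A.4/wrb-1 at 41.0 and 78.4, and hmgs-1/F25B4.4 at 49.2 and 91.3. In the other direction the histone pair his-2/his-1 stood at 58.7 and 26.1, the widest of that side. For rtfo-1/K09G1.1 the values were 75.2 and 37.8, and for Y53F4B.9/Y53F4B.11 they were 75.7 and 39.8. The genes lin-61 and bub-1, the latter a kinetochore checkpoint kinase, shared a peak at 139 and 74.4, and acdh-13/mesp-1 one at 85.2 and 46.3. In 5 divergent promoter peaks, among them spd-1/Y34D9A.3 and cdc-14/ttc-4, at least 1 replicate had no peak nearest to that summit.

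The strongest divergent promoter peaks were high in both replicates. Of the 25 of highest pooled signal, all 25 were among the strongest of both, with values from 162 to 407 in replicate 1 and from 163 to 416 in replicate 2. Their worst ranks among 30000 relaxed peaks were 114 and 151. They lay on every chromosome, 7 on III, 6 on IV, 5 on I and 1 on X, and their median spacing was 667 bp.

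Among these 25, several stood at genes of cell division and chromatin. The peak between vps-51, a subunit of an endosomal tethering complex, and lin-35, the *C. elegans* retinoblastoma relative, reached 757 (chromosome I, 5807395 to 5807618), at 342 in replicate 1 and 416 in replicate 2. Its summit lay 184 bp upstream of vps-51 and 234 bp upstream of lin-35. The gap between the histone genes his-67 and his-68 reached 677, at 308 and 364, with alg-5 also in reach. The peak of chaf-2, a subunit of the chromatin assembly factor that loads histones behind the replication fork, reached 609, at 298 and 321. At jmjd-1.2, a histone demethylase gene paired with F29B9.11, the values were 274 and 240, and at hsr-9, paired with the ribosomal protein gene rps-19, they were 220 and 236. In both replicates each of these peaks was among the 2129 strongest.

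Others of the 25 were at genes of varied roles, several of them in RNA binding, splicing or translation. Not all of these genes were the nearer one to their summit. The peak of K01G5.10/tasp-1 (III, 10759107 to 10759399) had its summit 66 bp upstream of tasp-1 and 719 bp upstream of K01G5.10, with 407 in replicate 1 and 366 in replicate 2. At ecps-1/atx-2 the values were 284 and 345, with the summit 55 bp upstream of atx-2. The peak in reach of rab-7, W03C9.5 and mex-1 had 327 and 289, with the summit 202 bp from W03C9.5 and 891 bp from mex-1. The mitochondrial glutamyl-tRNA synthetase gene ears-2 and its neighbour uncp-18 are only 92 bp apart, and the summit between them had 300 and 276. The summit upstream of prp-19, K10D2.5 and emb-1 had 266 and 284, and lay 643 bp from prp-19 and 32 bp from K10D2.5. At rpl-15/K11H12.8 the values were 263 and 260, and at rpl-20/Y17G9B.5 they were 242 and 243. The first of these summits lay 343 bp from rpl-15 and 471 bp from K11H12.8. The second lay 273 bp from rpl-20 and 189 bp from Y17G9B.5. Further peaks were at snx-13/snr-1 (245 and 203), where snr-1 encodes a spliceosomal Sm protein, and at fib-1/mut-15 (217 and 215), where fib-1 encodes the nucleolar methyltransferase fibrillarin. Their summits lay 420 bp from snr-1 and 191 bp from snx-13, and 164 bp from fib-1 and 156 bp from mut-15. The translation factor gene iff-2 and F54C9.14 shared a peak at 210 and 194.

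The rest of the 25 covered other roles. Metabolic and mitochondrial genes were mlcd-1/idhg-1 (286 and 282), nmat-1/ucr-2.1 on the X (204 and 236), nrde-2/atad-3 (241 and 210) and Y22D7AL.10/hsp-60 (163 and 222), the last with the mitochondrial chaperonin. At sup-35/Y48A6C.4 the values were 238 and 163, and at pak-2/C45B11.9 189 and 204. The chemoreceptor gene sre-1 had its 5' end 906 bp from a summit that lay 88 bp upstream of B0495.9, at 170 and 215. The pairs Y41D4A.6/Y41D4A.4 (253 and 231) and Y92H12BR.2/Y92H12BR.3 (162 and 204) consist of genes known by sequence names, and cux-7/C07H6.2/lig-4 (197 and 198) includes the gene for DNA ligase IV.

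Genes of the ribosome, translation and splicing had divergent promoter peaks at shares above the 2.48% of all protein-coding genes. No list was tested, and the intervals cover counting error only. Of 81 cytosolic ribosomal protein genes, 15 had one (18.5%, 10.8 to 28.7), with a median pooled signal of 188 over 14 summits. The strongest were rpl-15, rpl-20 and rps-19, given above, and then rpl-12 at 317, whose partner lin-54 encodes the DNA-binding subunit of the DREAM repressor complex. Splicing genes had 9 of 55 (16.4%), with rsp-1 and rsp-2, a pair of SR protein genes, on both sides of a summit at 184 and lsm-3 at 208. Translation factors had 6 of 39 (15.4%), among them eif-3.E at 336, the elongation factor gene eef-1A.1 at 210 and eef-2 at 194. Aminoacyl-tRNA synthetases had 4 of 32 (12.5%); kars-1 stood at 180, aars-1 at 137 and mars-1 at 132. By contrast 2 of 70 mitochondrial ribosomal protein genes had one (2.86%), mrpl-18 at 231 and mrpl-12 at 116.

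The kinetochore and centrosome list and the cell cycle list had the highest shares of the 25 lists. Both were drawn up by gene symbol, and a symbol such as cdk- or cdc- does not by itself show a role in division. The interval of cytosolic ribosomal protein genes, 10.8 to 28.7, overlaps with both of theirs. Kinetochore and centrosome genes had 7 of 30 (23.3%, 9.93 to 42.3), and cell cycle genes 8 of 41 (19.5%, 8.82 to 34.9). In the first list were cls-2, a microtubule-binding CLASP protein, at 344 (replicates 146 and 201), the condensin subunit gene hcp-6 at 295 (135 and 160), spd-1 at 264 and bub-1 at 217. In the second, after lin-35, came cdk-9 at 206, the cyclin-dependent kinase gene cdk-4 at 200 (76.1 and 121) and the cyclin E gene cye-1 at 182 (93.1 and 86.5). The E2F relative efl-1 stood at 175 (77.2 and 97.0). Some of these genes were the farther partner of their summit. That of cls-2 lay 997 bp from cls-2 and 261 bp from R107.5, that of spd-1 939 bp from spd-1 and 68 bp from Y34D9A.3, and that of cye-1 573 bp from cye-1 and 75 bp from pqn-21. The summits of cdc-48.2 and cdc-14, at 997 and 975 bp, were also nearer to the other gene. Replication genes had 3 of 26 (11.5%, 2.45 to 30.2, an interval that includes 2.48%), sld-2 at 173, psf-2 at 147 and cdc-6 at 119.01, and nuclear pore genes also 3 of 26, npp-14, npp-3 and npp-16, at 171, 165 and 109. Chromatin genes had 9 of 75 (12%), led by jmjd-1.2, set-16 at 331, lin-54 and hda-11 at 265.

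Histone genes are arranged in divergent pairs, and 64 of the 72 lie in head-to-head pairs. A divergent promoter peak was found at 12 histone genes (16.7%, 8.92 to 27.3), which are 6 summits with a histone gene on each side, so that interval is too narrow. After his-67/his-68 these were his-31/his-32 at 282 (112 and 168), his-60/his-59 at 232 (113 and 119.4), his-61/his-62 at 178 (72.6 and 100), his-6/his-5 at 147 (73.6 and 74.9) and his-2/his-1 at 118. Histone genes have near-identical copies, and the placement of reads from such copies is not given in the sources used here. In the windows at his-6/his-5 and his-2/his-1, 34.1% and 51.4% of the 16-letter words occur once in the genome, against 83.2% to 91.9% at the other 4, so the values at those 2 pairs are uncertain.

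Nuclear hormone receptors and chemoreceptors had divergent promoter peaks at shares whose intervals lay below the 2.48% of all genes. Nuclear hormone receptors had 1 of 269 (0.372%, 0.00941 to 2.05), nhr-142 at 184, and chemoreceptors 5 of 1317 (0.380%, 0.123 to 0.884), of which sre-1, sri-5 at 207, str-12 at 154 and srr-10 at 147 were the strongest. For 5 other families the interval included 2.48%. C-type lectins had 2 of 240 (0.833%, 0.101 to 2.98; clec-140 at 154 and clec-104 at 120), collagens 2 of 185 (1.08%, 0.131 to 3.85; col-71 at 203 and col-2 at 143), and F-box genes 4 of 322 (1.24%, 0.339 to 3.15; fbxb-85 at 221, fbxa-90 at 175, fbxa-153 at 154 and fbxb-77 at 128). Homeobox genes had 1 of 78 (1.28%, 0.0325 to 6.94), ceh-38 at 208, and neuropeptide genes 2 of 140 (1.43%, 0.173 to 5.07), nlp-34 and nlp-31, on both sides of a summit at 107. The lists also differ in how many genes lie in head-to-head pairs, 44 of 269 nuclear hormone receptors, 283 of 1317 chemoreceptors and 49 of 81 ribosomal protein genes. Among genes in pairs alone, a divergent promoter summit lay between the ends for 30.6% of ribosomal protein genes, 44.4% of cell cycle genes, 47.4% of chromatin genes, 14.3% of the 14 neuropeptide genes and 1.77% of chemoreceptors, beside 8.63% of all pairs. Of the 44 nuclear hormone receptor genes in pairs, 1 had such a summit (2.27%), too few genes to set that list apart from all pairs. Genes of these and other lists can be the farther partner of a summit, as fbxa-90 is at 931 bp from the summit that lies 208 bp upstream of efl-1.

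**Figure D5:**
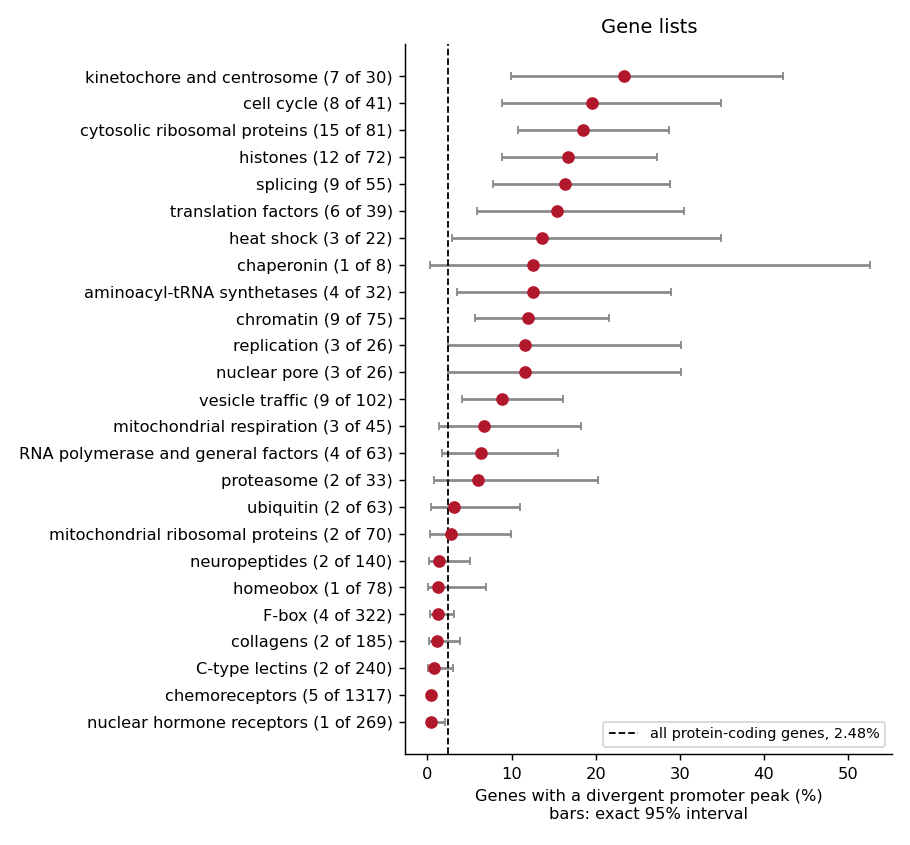
Share of the genes in each of 25 lists with a divergent promoter peak (x axis, %), with exact 95% intervals and the counts beside each list; the dashed line marks all protein-coding genes, 2.48%. Kinetochore and centrosome genes, cell cycle genes and ribosomal protein genes are at the top, with 23.3%, 19.5% and 18.5%, and nuclear hormone receptors and chemoreceptors at the bottom.

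The remaining lists had shares between these. The interval lay above the 2.48% of all genes for vesicle traffic (4.11 to 16.1) and heat shock (2.91 to 34.9). It included 2.48% for mitochondrial respiration (6.67%, 1.40 to 18.3), RNA polymerase and general factors (6.35%, 1.76 to 15.5) and proteasome genes (6.06%, 0.743 to 20.2). It also included 2.48% for ubiquitin (3.17%, 0.387 to 11.0) and chaperonin genes (12.5%, 0.316 to 52.7). Vesicle traffic genes had 9 of 102 (8.82%), led by vps-51, rab-7, snx-13 and copz-1, the last at 195, and mitochondrial respiration genes 3 of 45, atp-5 at 211, atp-1 at 152 and mev-1 at 139. RNA polymerase and general factors had 4 of 63, mdt-9 at 208, taf-4 at 177, mdt-6 at 134 and mdt-26 at 123. Proteasome genes had 2 of 33, rpn-7 at 118 and rpn-5 at 117, and ubiquitin genes 2 of 63, ubc-6 at 236 and usp-48 at 149. The chaperonin gene cct-1, 1 of 8, stood at 186. Heat shock genes had 3 of 22, hsp-60 and the divergent small heat shock pair hsp-16.2 and hsp-16.41, whose summit had 129 pooled, 52.4 in replicate 1 and 75.3 in replicate 2. A listed gene was in reach of 100 of the 245 summits. In 19 cases a listed gene stood on each strand, and in 10 of these both genes were of the same list. Of the 10, 6 were the histone pairs given above. The same counts were not made over all head-to-head pairs, so they describe the 245 peaks only. Genes known only by a sequence name were 30.2% of the 496 and 45.3% of all protein-coding genes.

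Few divergent promoter peaks were on the X chromosome. It held 11 of the 245 (4.49%), although it held 488 of all 2129 optimal peaks (22.9%). The X also offers little room for the class, with 5.45% of the bases that could meet the rule and 178 of the 2560 head-to-head pairs, spaced at a median of 1134.5 bp against 678 bp over the genome. A peak lay in 9 of those 178 pairs (5.06%, 2.34 to 9.38), against 12.1% of pairs on chromosome I, 11.7% on III, 9.32% on IV, 8.37% on II and 5.28% on V. At spacings under 1000 bp, 8 of 80 pairs on the X had one (interval 4.42 to 18.8%) and 189 of 1665 on the autosomes (11.4%, 9.87 to 13.0). The median pooled signal of the 11 was 179, and the strongest was nmat-1/ucr-2.1.

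Summit windows at divergent promoter peaks were richer in G and C than the midpoints of head-to-head pairs without a peak. The median GC content of the 200 bp around the summit was 41.0% (quartiles 37.0 and 46.0), against 46.0% at single-strand promoter peaks and 47.5% over all optimal peaks. It was 32.0% at the midpoints of the 1420 head-to-head pairs with no relaxed pooled peak between the ends or within 200 bp outside them. Those windows sit at midpoints and the others at summits, so position differs as well as the presence of a peak. At midpoints throughout, the median was 36.5% for the 221 pairs with a divergent promoter peak and 33.5% for all 2560. The motif comparisons with midpoints below share this difference in position. Motif shares move with GC content, so each is given beside these other windows.

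The Zic-type core was found at 6 of 245 divergent promoter peaks (2.45%, 0.904 to 5.25), 41 of 530 single-strand promoter peaks (7.74%, 5.61 to 10.3) and 140 of all 2129 (6.58%). At the midpoints of all 2560 head-to-head pairs it was found in 1.60%. On autosomes alone the shares were 1.71% (0.468 to 4.32) and 7.51% (5.09 to 10.6) for divergent and single-strand promoter peaks. With GC content of 50% or more they were 12.9% (3.63 to 29.8) of 31 and 10.7% (6.35 to 16.6) of 159, and between 40 and 49% they were 0.926% (0.0234 to 5.05) of 108 and 7.72% (4.78 to 11.7) of 259. Below 40% they were 0.943% (0.0239 to 5.14) of 106 and 3.57% (0.982 to 8.89) of 112. The intervals of the divergent and single-strand shares do not overlap over all peaks or on autosomes, and overlap in each of the 3 GC bands.

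Several other words had higher shares at divergent promoter peaks than at head-to-head midpoints without a peak. The GC box, shown in capitals in the strongest stretches, was found in 38 of 245 windows (15.5%, 11.2 to 20.7), against 12.1% at single-strand promoter peaks, 4.01% at the 1420 midpoints without a peak and 5.00% at all 2560 midpoints. The 38 had a median pooled signal of 230 and the rest 172. E2F-type words (TTTCCCGC, TTTGGCGC, TTTCGCGC or TTTGCCGC) were found in 9.39%, against 9.06%, 3.38% and 4.14% in the same 3 comparisons. The word CTGCGTCT was found in 9.39%, against 14.5%, 1.27% and 2.27%, and a GAGAGAGA run in 5.71%, against 10.9%, 1.27% and 1.60%. The E-box CAGCTG was found in 7.35%, against 7.92%, 3.87% and 3.91%.

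Other words had lower shares at divergent promoter peaks than at head-to-head midpoints without a peak. TATAAA was found in 13.1% (9.11 to 17.9), against 12.1% at single-strand promoter peaks, 29.4% at midpoints without a peak and 26.7% at all midpoints. GATAAG was found in 4.08%, against 3.02%, 10.6% and 8.83%. For CCAAT the shares were 29.0%, 28.9%, 34.2% and 32.7%, and for TTTTCAG, the letters of a splice acceptor, 14.7%, 8.68%, 19.2% and 18.5%. The intervals of CCAAT (23.4 to 35.1) and TTTTCAG (10.5 to 19.8) at divergent promoter peaks included their shares at midpoints without a peak. All words were sought on both strands, and overlaps were few; the GC box overlapped CCAAT in 3 windows, an E2F-type word in 2 and the Zic-type core in 1. In windows of 37 to 46% GC only, the GC box was in 15.2% of 132 divergent promoter peaks and 6.69% of 284 midpoints without a peak, the E2F-type word in 10.6% and 3.52%, and TATAAA in 10.6% and 16.2%. In that band the Zic-type core was in 1 of 132 and 9 of 284 and the E-box in 6.06% and 6.69%, the opposite order to that over all windows. TTTTCAG, lower over all windows, was in 16.7% and 16.5% there.

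Next after the shared word of 12 letters shown near the start, among words at none of its peaks, a word 2 and a word 3 of 12 letters were taken in the same way. Word 2 lay at 11 divergent promoter peaks (4.49%) and 12 single-strand promoter peaks (2.26%), with 763 copies in the genome, and included the peaks of cls-2, set-16, enpl-1 and hsp-16.2/hsp-16.41. The windows of all 11 divergent promoter peaks with word 2 also held CTGCGTCT, counted above, so the counts of these words are not separate. Word 3 lay at 7 divergent promoter peaks (2.86%) and 5 single-strand ones (0.943%), with 411 copies, among them trap-2/ile-2 and snrp-40.1/F08G12.3 on the X. Windows rich in repeated words, with at least 25% of their 16-letter words present at least 20 times in the genome, were 13 of the 245 (5.31%), 4.34% of single-strand promoter peaks and 3.31% of midpoints without a peak.

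Some summits lay close to the limits of the rule. The summits nearest inside the upstream limit were those of R107.5/cls-2 and ctns-1/cdc-48.2, 997 bp from cls-2 and from cdc-48.2, with signals of 344 and 172, and the nearest outside was at F56C9.10/gsp-2, at 1007 bp, with 123. The member farthest downstream of a 5' end lay 110 bp inside ceh-38 (208), and the nearest outside that limit lay 209 bp inside a gene at sec-61.A/rps-18 (255). The member nearest a noncoding gene was Y38E10A.22/Y38E10A.24, at 227 bp with 165, and the excluded summit farthest from one was nra-3/tsp-21, at 165 bp with 116. The 46 excluded summits had a median signal of 174. The weakest member, Y116A8C.9/arf-6, had a pooled signal of 106, and the strongest relaxed peak below the optimal list that met the rule, rnp-6/rde-10, had 105. The relaxed list of the pooled replicates held 717 further summits that met the rule, with a median signal of 54.9.

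Neither ref-2 nor unc-119 had a divergent promoter peak. The tagged gene ref-2 is on the X and in no head-to-head pair, and the nearest optimal summit lay 1369 bp downstream of its 5' end, at 214. For unc-119, whose mutation the strain carries, the nearest summit was at -45559 bp from the 5' end.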

How the data were processed

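REF-2-GFP ChIP-seq peaks were taken from lists that the authors deposited on ce11. These were an optimal list thresholded on IDR, a relaxed list of 30000 peaks for the pooled replicates and 1 for each replicate. The signal of each peak is the value the authors deposited, used to order peaks inside 1 list and to describe them. Peak caller, aligner, the use of a control and scaling between lists are not given in the sources used here. No read counts were analysed, so depth is unknown, and nothing in the labels says whether the replicates were separate cultures.

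Gene models were those of Ensembl release 115 and sequence was RefSeq WBcel235. A replicate's value was taken from its peak within 200 bp, only where that peak's nearest optimal summit was the same one, so that neighbouring summits share no value. The share among the strongest of both replicates took any peak within 200 bp, so there neighbouring summits can share a peak. Head-to-head pairs had neighbouring 5' ends up to 2000 bp apart. Intervals came from scipy 1.17.1, with Python 3.11.15, numpy 2.4.6, pandas 2.3.3 and matplotlib 3.10.9. No test was run, since there is 1 group. Peaks named are the 25 of highest pooled signal, up to 4 genes a list, 5 with the largest replicate difference each way and those nearest each limit. The peaks and lists were chosen with earlier results of these data known, and genes of other families that matched the chemoreceptor name pattern were removed after the matches were seen. The classification and motif search were tested on simulated data. Alternatives changed the window, the 5' ends, the noncoding exclusion, the replicate list and the motif window.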

Additional observations from a re-analysis of the deposited data

How the results depend on the processing

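The count of 245 divergent promoter peaks stayed within 1.5-fold under every alternative, from 164 in the stronger 1065 peaks of the optimal list to 335 with windows of 2000 bp; leaving out replicate 1 or 2, with the 2129 strongest relaxed peaks of the other, gave 232 and 265. The log2 signal ratio over single-strand promoter peaks, 0.27, was above 0 throughout. It was 0.10 in the stronger 1065 peaks, and 0.17 and 0.18 without replicate 1 and 2. The share among the strongest of both replicates, 80.8%, was 97.6% in the stronger 1065 peaks, where rank sets it in part, and 87.5% and 75.5% without replicate 1 and 2. The median distance to the nearer 5' end, 135 bp, was 111 bp with windows of 500 bp, 156 bp with windows of 2000 bp, 147 bp with no noncoding exclusion, 146.5 bp in the stronger 1065 peaks and 147 bp with summits between the ends only; without replicate 1 and 2 it was 133 and 142 bp. The share of head-to-head pairs with a peak, 8.63%, was 5.98% and 10.3% with windows of 500 and 2000 bp, 10.3% with no noncoding exclusion, 5.86% in the stronger 1065 peaks, 11.3% for pairs up to 1000 bp apart, and 7.97% and 9.34% without replicate 1 and 2. The Zic-type core share, 2.45%, ran from 1.71% on autosomes alone to 4.08% with a motif window of 400 bp, within its interval. The alternative with autosomes only was chosen after seeing the data. No paired analysis was possible because there is 1 group. A signal with no depth behind it gives no interval for a single peak.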
